A study of Homo sapiens with 9 samples.

Results

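The genes described here are 10 transcription factors of the megakaryocytic and myeloid lineages, taken as a written list of names out of 20163 protein-coding genes with an annotated start: RUNX1, CBFB, FLI1, ERG, ETV6, SPI1, CEBPA, GFI1, MEIS1 and IKZF1. H3K4me3, a histone mark of active promoters, had been mapped by CUT&RUN, in which an antibody directs a nuclease to marked chromatin, in 9 libraries of HEL cells, an established human erythroleukemia line grown in serum-containing medium. The control group, NTC, had a non-targeting guide and 3 libraries, and the METTL3-KO, METTL14-KO and WTAP-KO groups had 2 libraries each, with CRISPR knockout of a subunit of the m6A RNA methyltransferase. The sources used here do not say whether a knockout was a pool or a clone, nor whether libraries came from separate cultures, so that p-values measure only the spread between these libraries. For each gene the largest calibrated peak signal within 1 kb of any of its GENCODE starts on hg19 was taken in each library, and a window of 5 kb was used beside it.

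RUNX1 binds DNA with CBFB, its non-DNA-binding partner, as core-binding factor, and together with the ETS factors FLI1 and ERG it works in stem cells and megakaryocytes. SPI1 (PU.1) and CEBPA drive granulocyte and monocyte fates, while GFI1 and IKZF1 are zinc finger regulators and MEIS1 is a homeodomain partner of HOX proteins. Many of these genes have several promoters, and RUNX1 is known for a distal and a proximal one that give different protein starts.

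The libraries differed in what could be called. The NTC libraries held 21724 to 21941 peaks, the METTL3-KO libraries 9205 and 9369, and the other KO libraries 3160 to 5286. The worth of 1 fragment was estimated from the values, on the assumption that the lowest call of a library spanned 2 coverage intervals. By this estimate the lowest call took 12 to 14 fragments in the NTC libraries and 15 to 47 in the KO libraries. The estimate was not checked against read depth, which is not known. Peaks wider than 2000 bp were in none of the lists, so that absence of a call is not absence of the mark, and whether wider peaks had been left out was not tested. The cell type was checked on marker genes. In all 3 NTC libraries a promoter peak was present at 4 of 7 erythroid markers, 3 of 6 megakaryocyte markers, 2 of 6 monocyte and granulocyte markers, 3 of 6 lymphoid markers and 1 of 6 markers from outside blood. PF4, CD14, MPO, ELANE and CSF1R had no peak in any library. The summed signal of the erythroid markers was 20115 to 25260 in the NTC libraries and 0 to 4583 in the KO libraries, that of the megakaryocyte markers 29612 to 39544 and 0 to 3285, and that of the monocyte and granulocyte markers 3255 to 6570 and 0. The part of this shift in the results below was not tested. A promoter mark does not report whether a coding sequence was cut, so the knockout labels were not checked here.

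Of the 10 factors, 6 had a promoter peak in all 3 NTC libraries, namely RUNX1, CBFB, ERG, ETV6, CEBPA and GFI1. In the KO libraries, 3 to 5 factors were marked, against 6 or 7 in the NTC libraries. Over all genes the share marked was 46.8% to 47.9% for NTC, 33.5% and 34.6% for METTL3-KO, 21.1% and 13.2% for METTL14-KO and 11.4% and 12.9% under WTAP-KO. Of those 6 factors, 3 (CBFB, ERG and CEBPA) had no promoter peak in any KO library, beside 45.8% of the 8495 genes with a peak in every NTC library. Taken group by group, 3 of the 6 had none in METTL3-KO, where 46.3% of genes had none, 5 of 6 in METTL14-KO (73.3% of genes) and 4 of 6 in WTAP-KO (84.9% of genes). One factor, IKZF1, had no NTC promoter peak but one in at least 2 KO libraries, as did 9% of all genes.

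The fit held 9 factors, since SPI1 had no peak, and CBFB, ERG and CEBPA passed the filter through the NTC libraries alone and IKZF1 through KO libraries alone. Calls of genes with peaks on one side alone are a description. In the limma fit over 12037 genes, with adjusted p under 0.05, 5 factors were lower and 1 was higher in all KO libraries together, beside 73% of genes lower and 14.3% higher. METTL3-KO against NTC gave 4 factors lower and 1 higher, with 60.9% and 14% of genes. METTL14-KO gave 5 lower and 0 higher (1 at an unadjusted p under 0.05, RUNX1), with 68.8% and 8.38% of genes, and WTAP-KO gave 5 lower and 1 higher, with 69.7% and 6.81% of genes. The median log2 difference for all KO was -6.22 over the 9 factors and -5.30 over all genes tested. In the 5 kb window the order turned, with medians of -3.89 over the factors and -5.35 over all genes, and there 6 factors were lower and 1 higher, beside 76.3% and 11% of genes. Both medians of the factors were the value of a single gene, ETV6, so the turn is not a shift of the whole set. Every KO library lay below every NTC library for 5 factors (68.3% of genes) and above for RUNX1 alone (5.21% of genes). No factor passed the test of METTL3-KO against the other KO groups, where 30.1% of genes did, or of METTL14-KO against WTAP-KO, where 2.77% did. At an unadjusted p under 0.05 the count was also 0 in both. CBFB, ERG and CEBPA had no peak in any KO library and so could pass neither of these tests. GFI1, without a peak in METTL14-KO or WTAP-KO, could not pass the latter.

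**Figure D1:**
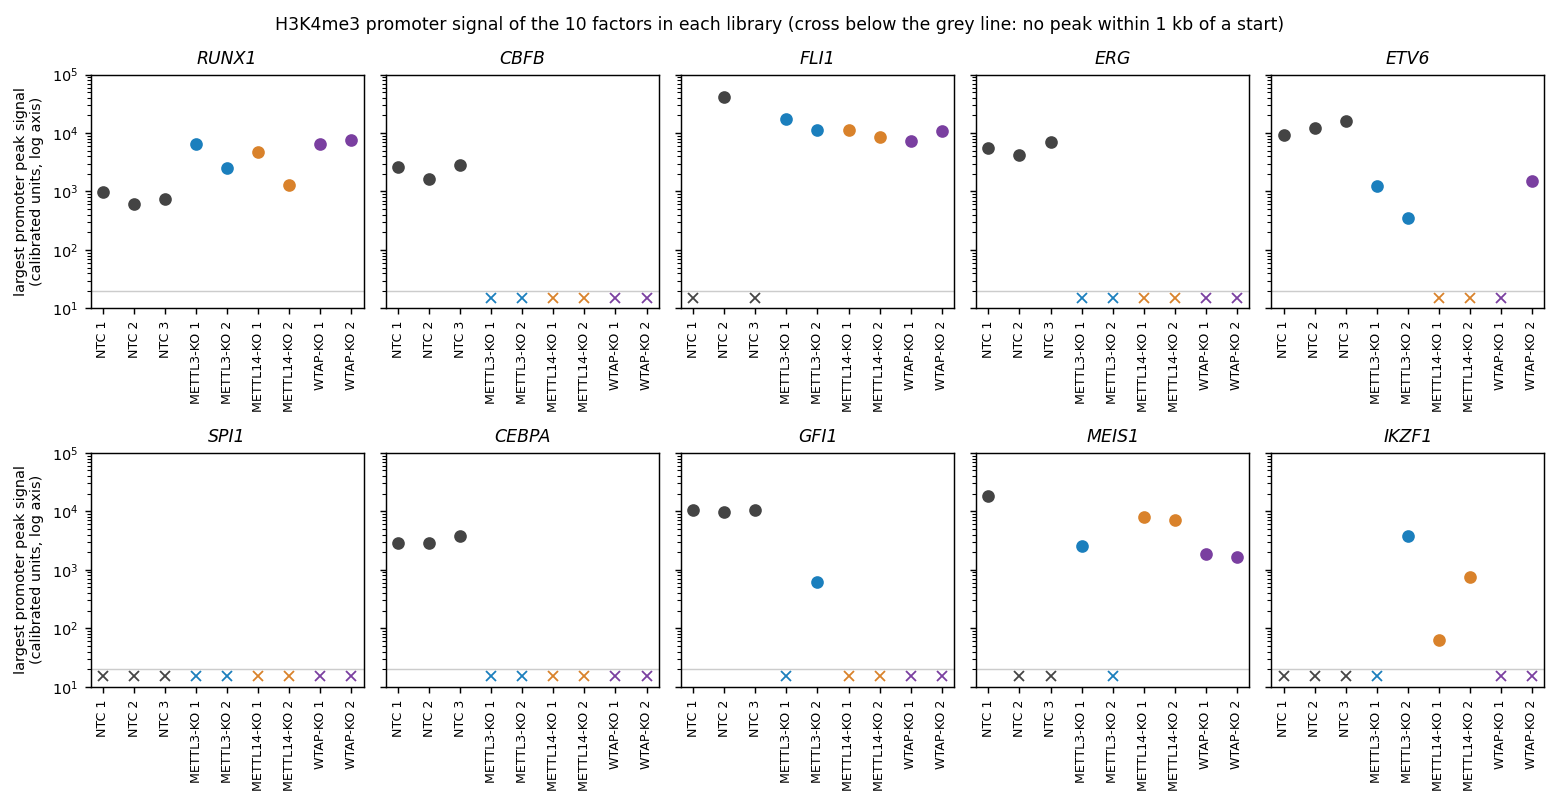
Largest H3K4me3 peak signal within 1 kb of a start (calibrated units, log axis) of the 10 factors in each of the 9 libraries, coloured by group, with a cross where no peak was called. RUNX1 was above the NTC libraries in all 6 KO libraries, while CBFB, ERG and CEBPA had no KO peak and SPI1 had no peak at all.

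RUNX1, the DNA-binding subunit of core-binding factor (chr21:36160098-37376965, minus strand, 16 annotated starts), was the sole factor marked in all 9 libraries and the sole one that rose. Its largest promoter signal was 966, 622 and 732 in the NTC libraries, 6541 and 2530 in METTL3-KO, 4749 and 1268 in METTL14-KO, and 6506 and 7726 in WTAP-KO. All 6 KO libraries were higher than the highest NTC library, and the groups did not overlap. The log2 difference on the log2(signal + 30.1) scale was 2.40 (SE 0.518, limma adjusted p = 0.0044) for all KO, 2.37 (adjusted p = 0.0164) for METTL3-KO and 3.17 (adjusted p = 0.0041) for WTAP-KO. For METTL14-KO it was 1.65 (adjusted p = 0.0607) within 1 kb and 3.02 (adjusted p = 0.0010) within 5 kb. Without METTL14-KO replicate 2 the 1 kb value was 2.59 (limma adjusted p = 0.0097), and without METTL3-KO replicate 1 the METTL3-KO value was 1.69 (adjusted p = 0.103). The KO mean was 632% of the NTC mean, whereas the median over the 665 genes marked in all 9 libraries was 16.8%, and 6.47% of those genes had a KO mean above the NTC mean.

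The RUNX1 peaks of the groups did not lie at the same bases. All marked starts were the 3 of the proximal cluster, from 36259480 to 36262087, and no library had a peak within 1 kb of the distal starts around 36421567. The NTC libraries had 1 narrow peak each there, of 207 to 261 bp, which shared 207 bases at chr21:36261637-36261843 in the intron. No KO library had a peak over that stretch. The METTL14-KO and WTAP-KO peaks lay on both sides of it, and the METTL3-KO peaks on the downstream side alone. In METTL3-KO the peaks lay over or just beside the starts at 36259480 and 36260987, and in METTL14-KO and WTAP-KO they reached from 36255983 to 36265185. Within 5 kb of its starts RUNX1 had 207 to 438 bp under peaks in the NTC libraries and 1206 to 5013 bp in the KO libraries. The region at chr21:36257152-36258892, downstream of the starts, held 4749 and 2823 in METTL14-KO and 6506 and 7726 in WTAP-KO and had no peak in the other libraries. Of the 7 regions near RUNX1 starts, 5 had peaks in KO libraries alone. Whether a wider NTC peak here was left out of the lists was not tested.

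The bases at the proximal RUNX1 promoter are shown because the mark lay on different stretches in the groups. They are from the hg19 genome, read along the minus strand of the gene. The first is the 250 bases before the start at 36260987 (chr21:36260988-36261237), which overlaps the KO peaks, and the second is 250 bases centred on the NTC peak (chr21:36261616-36261865):
RUNX1, before the proximal start: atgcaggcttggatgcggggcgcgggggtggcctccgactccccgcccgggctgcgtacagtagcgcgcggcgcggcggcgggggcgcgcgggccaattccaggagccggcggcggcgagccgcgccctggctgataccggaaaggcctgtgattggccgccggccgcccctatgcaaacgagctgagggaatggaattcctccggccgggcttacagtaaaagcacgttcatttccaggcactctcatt
RUNX1, NTC peak: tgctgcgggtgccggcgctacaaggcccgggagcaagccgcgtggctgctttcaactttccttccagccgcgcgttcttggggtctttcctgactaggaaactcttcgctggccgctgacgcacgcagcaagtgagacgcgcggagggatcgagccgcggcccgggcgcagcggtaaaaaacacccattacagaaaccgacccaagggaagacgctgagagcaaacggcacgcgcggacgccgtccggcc
Both are CpG-rich, with 31 CpG each and a GC content of 69.2% and 65.2%, against a median of 18 CpG and 63.6% over the 250 bases before 18921 protein-coding starts. Each window shown here was searched on both strands for motifs of 3 factor families, which do not overlap one another in these windows, and matches are in capitals. For ETS proteins the letters were CGGAAG, present in 22.0% of the promoter windows and in 13.5% of the 250-base centres of 16225 regions called in all 3 NTC libraries. For GATA factors they were AGATAA, present in 6.48% of the promoters and 12.2% of the region centres. For RUNX proteins they were TGTGGT, present in 8.75% and 12.9%. Neither RUNX1 window held a match.

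CBFB, the partner subunit (chr16:67062887-67134961, plus strand), had a promoter signal of 2595, 1654 and 2885 in the NTC libraries and no peak in any KO library. The groups did not overlap. CBFB passed the filter through the NTC libraries alone, so its call is a description and its p-value for all KO is not given. Each NTC library had a pair of peaks, one over or just before the first start and one downstream of the start at 67063364, of 1640, 1654 and 1289. Neither had a KO peak. Once peaks weaker than the NTC median were dropped, the limma adjusted p of CBFB was 0.0932 to 0.0964 in the single KO groups.

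**Figure D2:**
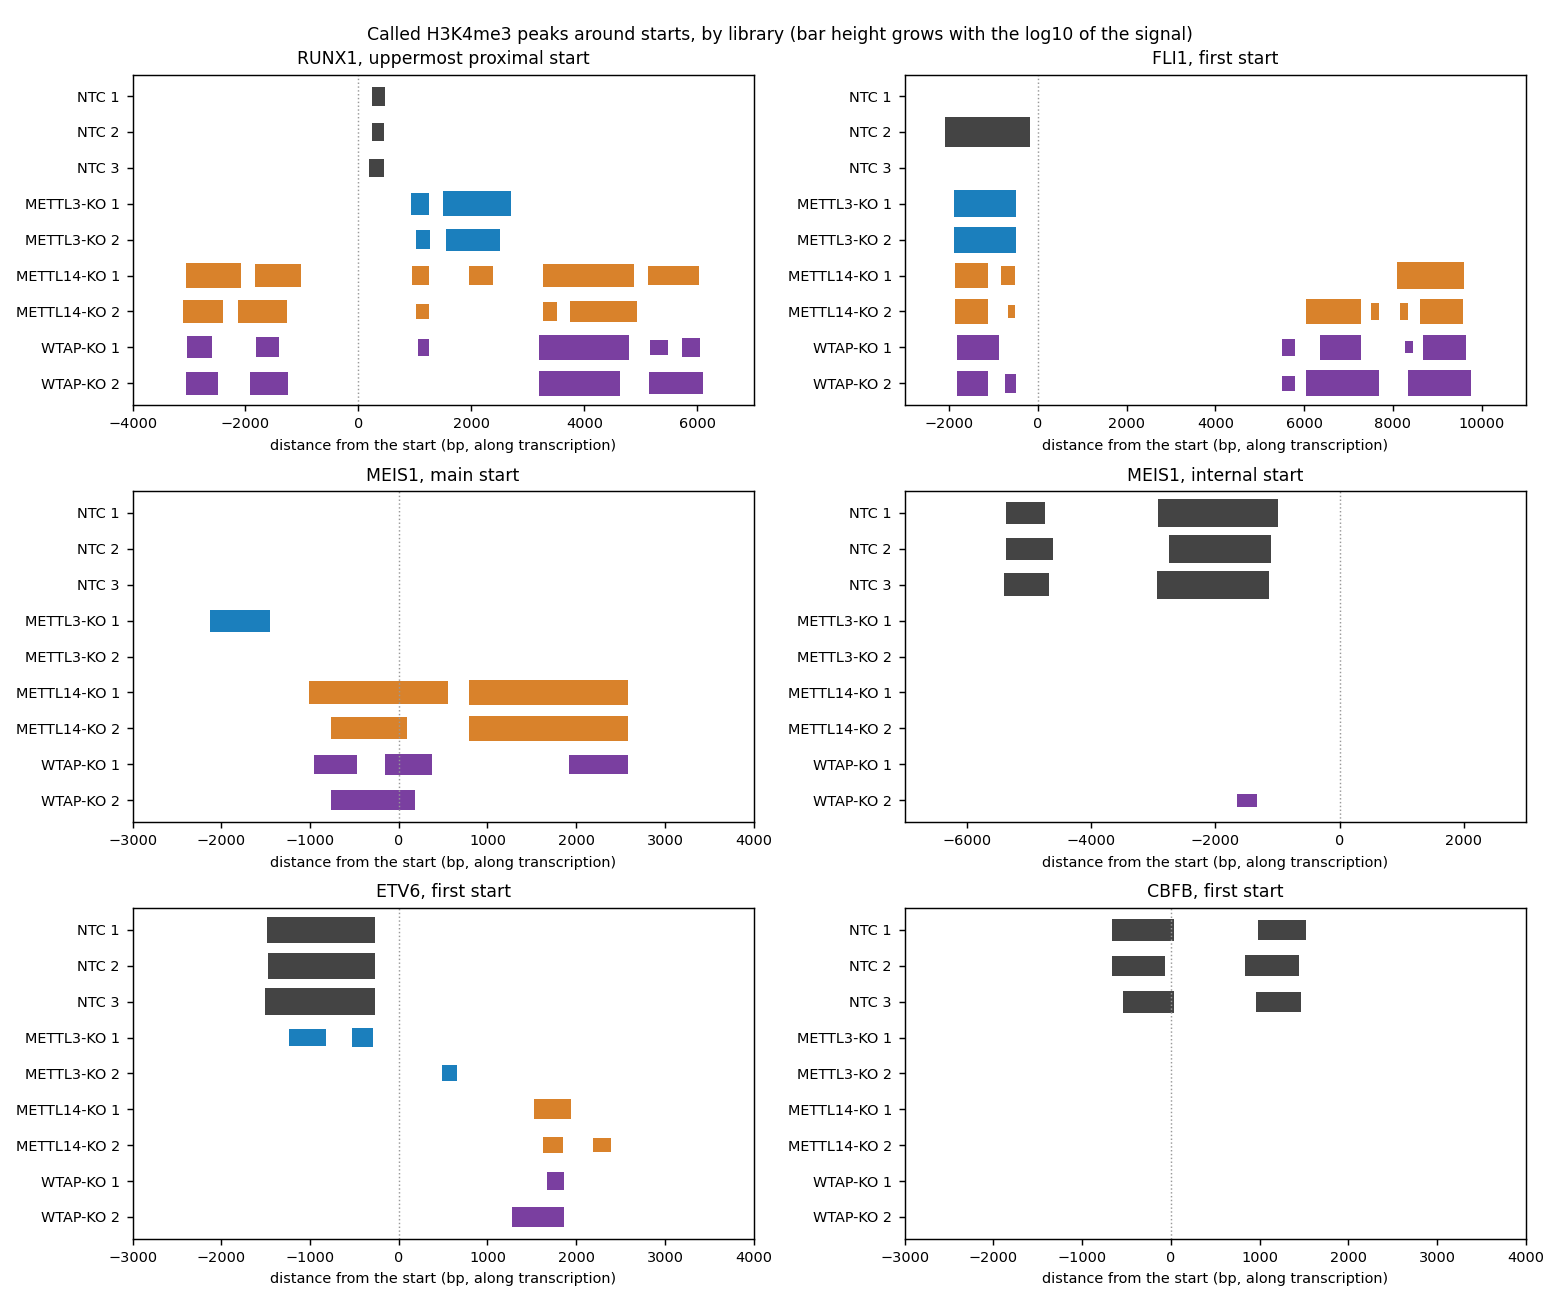
Called H3K4me3 peaks in each library (rows, coloured by group) against distance in bp from a start, along the direction of transcription, with bar height growing with log10 signal. At RUNX1 the METTL14-KO and WTAP-KO peaks flank the single narrow NTC peak, and the METTL3-KO peaks lie downstream of it. KO peaks lie at the main MEIS1 start, NTC peaks lie before the internal MEIS1 start and before ETV6, and CBFB has NTC peaks alone.

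Among the ETS factors, ERG and ETV6 fell, FLI1 did not pass the test and SPI1 was not marked. FLI1, a driver of megakaryocyte differentiation (chr11:128556430-128683162, plus strand), had a promoter signal of 41598 in NTC 2 and no peak in NTC 1 or NTC 3. In the KO libraries it was 17053 and 11335 in METTL3-KO, 11234 and 8390 in METTL14-KO, and 7434 and 10993 in WTAP-KO. The highest library was thus an NTC library and the lowest values were NTC libraries without a call, so the groups overlap in level. The log2 difference for all KO was 5.00 (SE 2.44, limma adjusted p = 0.0943). It passed without NTC replicate 2, but this left no NTC peak, so that call is a description. The NTC 2 peak was 1936 bp wide, near the widest peak of any list. All 6 KO libraries had a peak on the same stretch before the first start, and their largest peaks shared 695 bases.

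Downstream, at the FLI1 starts from 128562877 to 128563987, peaks were called in METTL14-KO and WTAP-KO libraries alone. The region at chr11:128564532-128566184 held 11234 and 9688 in METTL14-KO and 9823 and 10671 in WTAP-KO, with no peak in NTC or METTL3-KO. It entered the region fit through those 4 libraries alone, so its test is not given, and the same holds for the other regions below that had no peak on one side. Annotated starts of the non-coding genes ENSG00000245008 and SENCR lie within 1 kb of these FLI1 regions, and the mark cannot be assigned to one gene. The 250 bases at the middle of the stretch shared by the KO peaks (chr11:128554826-128555075, plus strand, outside the gene) are shown as the one place near these starts marked in every KO library:
FLI1, KO peaks before the first start: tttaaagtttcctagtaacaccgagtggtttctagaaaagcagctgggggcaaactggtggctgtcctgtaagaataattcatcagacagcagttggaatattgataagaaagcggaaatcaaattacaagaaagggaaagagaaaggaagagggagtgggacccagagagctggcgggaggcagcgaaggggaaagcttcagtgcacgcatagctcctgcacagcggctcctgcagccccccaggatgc
They had a GC content of 50.4%, 6 CpG and no match to the motifs.

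ERG, a stem cell and megakaryocyte ETS factor (chr21:39751949-40033704, minus strand), had a promoter signal of 5555, 4190 and 7087 in the NTC libraries and no peak in any KO library. It passed the filter through the NTC libraries alone, so its test is not given. The peak lay at the starts from 40032591 to 40033704, the uppermost of the gene. Other ERG starts, around 39870401, had no peak within 1 kb in any library.

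ETV6, an ETS repressor needed for bone marrow haematopoiesis (chr12:11802608-12048311, plus strand), had the highest mean NTC promoter signal of the factors that fell, from 9168, 12296 and 16085, although GFI1 was above it in NTC 1. It was 1225 and 348 in METTL3-KO, absent in both METTL14-KO libraries, and absent and 1485 in WTAP-KO. Every KO library was below every NTC library. The log2 difference was -6.22 (SE 1.22, limma adjusted p = 0.0028) for all KO, -5.84 (adjusted p = 0.0128) for WTAP-KO and -4.15 (adjusted p = 0.0504) for METTL3-KO, the last of which just missed the threshold. The WTAP-KO call was lost under 4 alternatives, with limma adjusted p of 0.0526 with only those groups in the fit, 0.0616 with a replicate block, 0.0835 after division by the worth of 1 fragment and 0.167 after centring on genes marked in all 9 libraries. METTL3-KO passed in the 5 kb window (limma adjusted p = 0.0033) and at 10 times the pseudocount (adjusted p = 0.0037). It also passed with a peak required in at least 4 libraries (adjusted p = 0.0479) and with only those groups in the fit (adjusted p = 0.0045). At a threshold of the NTC median it was called as well, but no METTL3-KO peak was left there. The 3 NTC peaks shared 1204 bases upstream of the first start, and METTL3-KO 1 was the sole KO library with a peak in that region. The METTL14-KO and WTAP-KO libraries instead had a region in the first intron, chr12:11803886-11804550, with 1541, 412, 604 and 1485 and no peak in NTC or METTL3-KO. The window at the middle of the NTC peaks (chr12:11801617-11801866, plus strand, outside the gene) is shown as the stretch where the mark was no longer called in 5 of 6 KO libraries:
ETV6, NTC peak before the first start: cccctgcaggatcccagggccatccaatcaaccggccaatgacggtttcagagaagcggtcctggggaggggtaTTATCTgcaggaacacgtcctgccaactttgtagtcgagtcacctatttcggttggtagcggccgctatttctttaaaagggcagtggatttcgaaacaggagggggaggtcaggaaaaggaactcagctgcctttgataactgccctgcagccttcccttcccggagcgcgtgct
It had a GC content of 55.6% and 1 match to the GATA letters, read on the minus strand.

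SPI1, the ETS factor PU.1 of myeloid and B cells (chr11:47376411-47400098, minus strand), had no peak within 1 kb or 5 kb of any of its 4 annotated starts in any library, and it was not tested.

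CEBPA, the leucine zipper factor of granulocyte commitment (chr19:33790840-33793440, minus strand, 1 start), had a promoter signal of 2919, 2846 and 3808 in the NTC libraries and no peak in any KO library. The groups did not overlap, and the test is not given, since CEBPA too passed the filter through the NTC libraries alone. The NTC peak lay 182 to 229 bp upstream of the start and within 1 kb of a start of the non-coding gene CEBPA-DT, so that it cannot be assigned to one of them. The NTC peaks shared 504 bases, and their middle (chr19:33793796-33794045, minus strand) is shown as a CpG-rich stretch without any KO call:
CEBPA, NTC peak before the start: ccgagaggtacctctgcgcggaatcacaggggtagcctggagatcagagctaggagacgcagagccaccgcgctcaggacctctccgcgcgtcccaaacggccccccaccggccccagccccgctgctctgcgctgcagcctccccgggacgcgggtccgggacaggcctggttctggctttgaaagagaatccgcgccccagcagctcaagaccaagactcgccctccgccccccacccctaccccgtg
It had a GC content of 69.6%, 22 CpG and no match.

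GFI1, a zinc finger repressor of granulocyte and stem cell programmes (chr1:92938600-92952482, minus strand), was the steadiest factor among the NTC libraries, at 10497, 9922 and 10517. METTL3-KO 2 had 619, and no other KO library had a peak. The log2 difference was -7.69 for all KO (SE 0.902, limma adjusted p = 2.1e-04) and -6.21 for METTL3-KO (adjusted p = 0.0028). Its region at chr1:92950178-92951974 covers several starts and overlaps an exon.

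IKZF1 (Ikaros), a zinc finger regulator of lymphoid and stem cells (chr7:50343664-50472799, plus strand), had no promoter peak in any NTC library. It had 3819 in METTL3-KO 2 and 62.5 and 741 in the METTL14-KO libraries, and none in METTL3-KO 1 or WTAP-KO. It did not pass for all KO (limma adjusted p = 0.215). IKZF1 entered the fit through KO libraries alone, so the call it gained without METTL3-KO replicate 1 is a description. Within 5 kb the order turned, since NTC 2 and NTC 3 had 3288 and 7176 at chr7:50350545-50352362, where no KO library had a peak. Its difference was not called in that window either (log2 -2.68, limma adjusted p = 0.306).

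MEIS1, a homeodomain partner of HOX proteins in stem cells and leukaemia (chr2:66660584-66801001, plus strand, 17 starts), was marked at different starts in the groups. Within 1 kb it had 18159 in NTC 1 and no peak in NTC 2 or NTC 3, 2549 and none in METTL3-KO, 7919 and 7184 in METTL14-KO, and 1871 and 1669 in WTAP-KO. The groups overlapped, and the all KO difference was 2.62 (SE 2.52, limma adjusted p = 0.359). Without NTC replicate 1 no NTC peak was left, so the call gained there is a description. The NTC 1 value came from a peak 992 bp before an internal start at 66723158, and in the 5 kb window, where that peak counted in all 3 NTC libraries, the difference was -3.64 (SE 1.30, limma adjusted p = 0.0349). The direction of MEIS1 thus rested on the window.

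Taken by region, the 2 ends of MEIS1 differed. The intronic region before the internal start, chr2:66720226-66722166, held 18159, 18065 and 22507 in the NTC libraries, 137 in WTAP-KO 2 and no peak in the other KO libraries. It fell by 8.93 on the log2 scale in all KO (SE 0.519, limma adjusted p = 4.3e-06). The region over the main start, chr2:66661251-66662807, had no NTC or METTL3-KO peak and held 4320 and 2433 in METTL14-KO and 2745 and 1669 in WTAP-KO. The next region downstream, chr2:66663050-66664842, held 7919 and 7184 in METTL14-KO and 1086 in WTAP-KO 1. METTL3-KO 1 had a peak of 2549 over the first annotated start at 66660584. That peak and the region over the main start both lie within 1 kb of a start of the antisense gene MEIS1-AS3, so that neither can be assigned to one gene. The 2 stretches are shown side by side because they carried the mark in different groups (hg19, plus strand, chr2:66721099-66721348 for the first and chr2:66662007-66662256 for the second):
MEIS1, NTC peak before the internal start: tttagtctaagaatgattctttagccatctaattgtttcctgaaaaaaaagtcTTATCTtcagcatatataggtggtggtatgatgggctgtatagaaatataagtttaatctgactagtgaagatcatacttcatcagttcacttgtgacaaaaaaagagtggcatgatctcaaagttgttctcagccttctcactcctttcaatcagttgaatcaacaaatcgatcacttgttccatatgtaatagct
MEIS1, before the main start: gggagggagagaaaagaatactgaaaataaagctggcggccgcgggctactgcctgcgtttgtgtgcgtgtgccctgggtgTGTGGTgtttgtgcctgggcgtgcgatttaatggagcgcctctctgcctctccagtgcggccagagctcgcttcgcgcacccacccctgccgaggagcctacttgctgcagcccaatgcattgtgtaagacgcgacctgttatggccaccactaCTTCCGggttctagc
The intronic stretch was AT-rich, with a GC content of 34%, 1 CpG and 1 match to the GATA letters. The stretch before the main start had a GC content of 59.6%, 16 CpG, 1 match to the ETS letters and 1 to the RUNX letters.

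Away from the starts nearly all peaks were in the NTC libraries. Peaks over 5 kb from a gene's own starts, within the gene or 5 kb of its ends, numbered 47, 43 and 50 in the NTC libraries and 2 or 3 in each KO library. In the NTC libraries they belonged to 6 factors (RUNX1, FLI1, ERG, ETV6, MEIS1 and IKZF1), and in the KO libraries all lay at RUNX1 save 1 at MEIS1 in METTL3-KO 1. The annotated span of RUNX1 reaches far past its distal starts around 36421567, and its KO peaks counted here all lay upstream of them. Merged, the distal peaks of all libraries gave 58 regions, of which 46 were tested. Of these, 43 had peaks in NTC libraries alone and so passed the filter of 2 libraries through the group in which they were high, which leaves the calls as a description. In the limma fit 41 were lower in all KO and 0 were higher (0 also at an unadjusted p under 0.05), beside 76.7% and 12.2% of all 24547 regions. Those shares include regions at starts, and none was taken over distal regions alone. With one library left out at a time fewer distal regions of the factors were called lower in every run, and the higher count is given further below. Of the 33 called in all 3 NTC libraries, 32 had no KO peak, beside 86% of the regions so called that lie over 5 kb from every protein-coding start, and 71% of such regions at any distance. Within 5 kb of the starts there were 29 regions, and 17 of them had peaks in KO libraries alone, beside 17.4% of all regions within 5 kb of a protein-coding start and 15.2% at any distance. RUNX1 held 5 of the 17, FLI1, ETV6, MEIS1 and IKZF1 held 3 each, and the other factors held none. Regions of the same gene are neighbouring stretches and not independent, so the count is not a share of the factors. Of the 24 near-start regions tested, 10 were lower and 10 higher, where 7 had passed the filter through NTC libraries alone and 13 through KO libraries alone. With peaks within 1 kb of each other merged, 4 were higher.

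**Figure D3:**
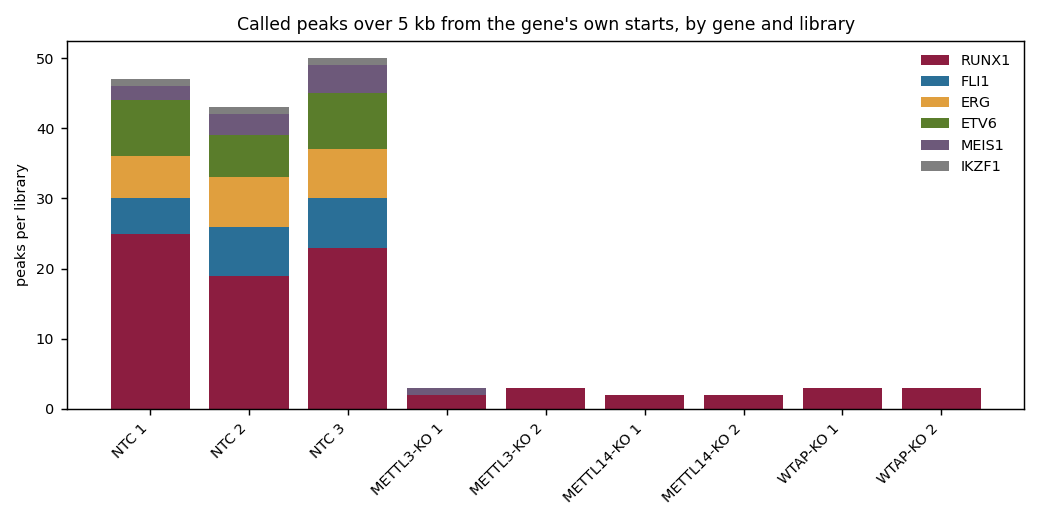
Number of called H3K4me3 peaks over 5 kb from the gene's own starts in each library, stacked by gene. The NTC libraries hold 43 to 50 peaks over 6 genes and the KO libraries 2 or 3, nearly all at RUNX1.

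In each of 4 genes, the distal region without a KO peak that had the highest mean NTC signal is given here, chosen after the values were seen. An intronic RUNX1 region 50693 bp from the nearest start (chr21:36369065-36370874) had 13581, 11503 and 17431. One past the end of ERG (chr21:39747865-39749758) had 12485, 15819 and 14676, one in ETV6 (chr12:11964917-11966506) had 8355, 9075 and 11709, and one in FLI1 (chr11:128605221-128606510) had 4789, 7026 and 7785. In RUNX1 a region at chr21:36398693-36400656 had peaks 1964 and 1960 bp wide in NTC 1 and NTC 3 and no peak in NTC 2, again near the widest peak of any list.

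The distal region with the highest NTC signal was also the one called in all 9 libraries, in a RUNX1 intron at chr21:36900550-36902152, 50906 bp from the nearest start. On the minus strand this region lies upstream of the distal starts around 36421567, and only transcripts with starts at 36953058 or beyond span it. It held 30147, 33526 and 36617 in the NTC libraries, 7901 and 3274 in METTL3-KO, 3453 and 1729 in METTL14-KO, and 1796 and 1799 in WTAP-KO. Every KO library was below every NTC library. The log2 difference was -3.55 (SE 0.363, limma adjusted p = 9.7e-05) for all KO, with -2.70 in METTL3-KO, -3.75 in METTL14-KO and -4.19 in WTAP-KO. The signal of this region thus fell in the libraries in which the proximal promoter signal of the same gene was higher. A further intronic region, chr21:36770847-36772854, also upstream of the starts around 36421567, had peaks in METTL3-KO 2, METTL14-KO 2 and both WTAP-KO libraries and none elsewhere. The middle of the region called in all libraries (chr21:36901214-36901463, minus strand) is shown as the sole distal stretch that kept a call throughout:
RUNX1, distal region: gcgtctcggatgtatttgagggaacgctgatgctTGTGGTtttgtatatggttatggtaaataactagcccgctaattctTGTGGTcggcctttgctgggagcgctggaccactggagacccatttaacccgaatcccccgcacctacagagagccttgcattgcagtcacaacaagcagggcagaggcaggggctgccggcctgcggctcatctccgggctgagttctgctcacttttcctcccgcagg
It held 2 matches to the RUNX letters, a GC content of 56% and 12 CpG.

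The related factors were 57 genes in 6 written lists, of which 46 were tested, and 32 were lower and 6 higher in all KO, beside 73% and 14.3% of all genes. Of the 33 marked in all NTC libraries, 11 had no KO peak, and LYL1 also had NTC peaks alone. All those called higher, save MEIS2, had KO peaks alone. These genes passed the filter through the side on which they were high, so their calls are a description. Among the core-binding factor relatives 4 of 5 were lower. CBFA2T3, a corepressor of erythroid and megakaryocyte complexes, had 5808, 5672 and 6690 in the NTC libraries and no KO peak. RUNX1T1, another corepressor of that family, had 4666, 5942 and 3283 in NTC and 3285, 9083, 377, 188, none and 380 in the KO libraries in group order (limma adjusted p = 0.0171, lower on the log2 scale). METTL3-KO 2 was thus above every NTC library while the METTL14-KO and WTAP-KO libraries were below. RUNX2 and RUNX3, the paralogs of RUNX1, were marked in each NTC library and had no KO peak.

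Of the other ETS factors 6 of 11 tested were lower and 3 higher. ETV3 had no KO peak against 5828, 2574 and 5911 in NTC, and ELF4 had none against 730.5, 577 and 82.2. ERF, an ETS repressor marked in all 9 libraries, had 9189, 8576 and 8868 in NTC and 284 to 1308 in the KO libraries (log2 -3.87, SE 0.290, limma adjusted p = 2.0e-05). The 3 that were higher, GABPA, ELF1 and ELF2, are named because of their values. None had an NTC peak, whereas GABPA had 3520 to 13786 and ELF1 1860 to 6410 across all KO libraries. Of the other C/EBP, IRF and myeloid factors 6 of 6 tested were lower, and the 6 remaining, among them IRF8 and CEBPE, did not have a peak in at least 2 libraries. CEBPG had 8569, 8202 and 8883 in NTC and 328 in METTL3-KO 1 alone, and CEBPD had 854, 861 and 118 in NTC and no KO peak.

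Of the TALE and HOXA partners of MEIS1, 3 of 7 tested were lower and 2 higher. MEIS2, its paralog, had 707, 806 and 345 in NTC and 14074, 5677, 4717, 2671, 1721 and 3311 in the KO libraries, all above the highest NTC value (log2 2.80, SE 0.477, limma adjusted p = 0.0014). PKNOX1, also marked in all 9 libraries, had 15158, 14032 and 18389 in NTC and 565 to 3446 in KO (log2 -3.29, SE 0.298, adjusted p = 5.4e-05), and PBX4 had 388, 344 and 502 in NTC and no KO peak. PBX3, named because of its value, had no NTC peak and 501 and 287 in METTL3-KO. Of the Ikaros and GFI relatives 3 of 5 were lower. GFI1B, the erythroid and megakaryocyte paralog of GFI1, had 1686, 4428 and 3308 in NTC and 2783 and 166 in METTL3-KO and no other peak (log2 -5.07, SE 0.835, limma adjusted p = 0.0012). IKZF5 had 6536, 6677 and 7372 in NTC and 1190 and 579 in METTL3-KO, with no other peak.

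Of the megakaryocyte and stem cell regulators 10 of 12 tested were lower and 1 higher. LDB1, the scaffold of GATA and LMO2 complexes, had 22322, 21855 and 11666 in NTC, 1634 and 1168 in METTL3-KO and 389 in METTL14-KO 1 (log2 -6.73, SE 0.829, limma adjusted p = 2.7e-04). TAL1 had 1358, 1029 and 1495 in NTC and none to 496 in KO (log2 -3.45, SE 0.446, adjusted p = 3.5e-04). SRF and MAFG, marked in all 9 libraries, were lower, with log2 differences of -3.72 (SE 0.273, limma adjusted p = 1.7e-05) and -4.63 (SE 0.513, adjusted p = 1.6e-04). MECOM, the one that was higher and named for its value, had no NTC peak and 659 to 8106 in the 6 KO libraries.

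**Figure D4:**
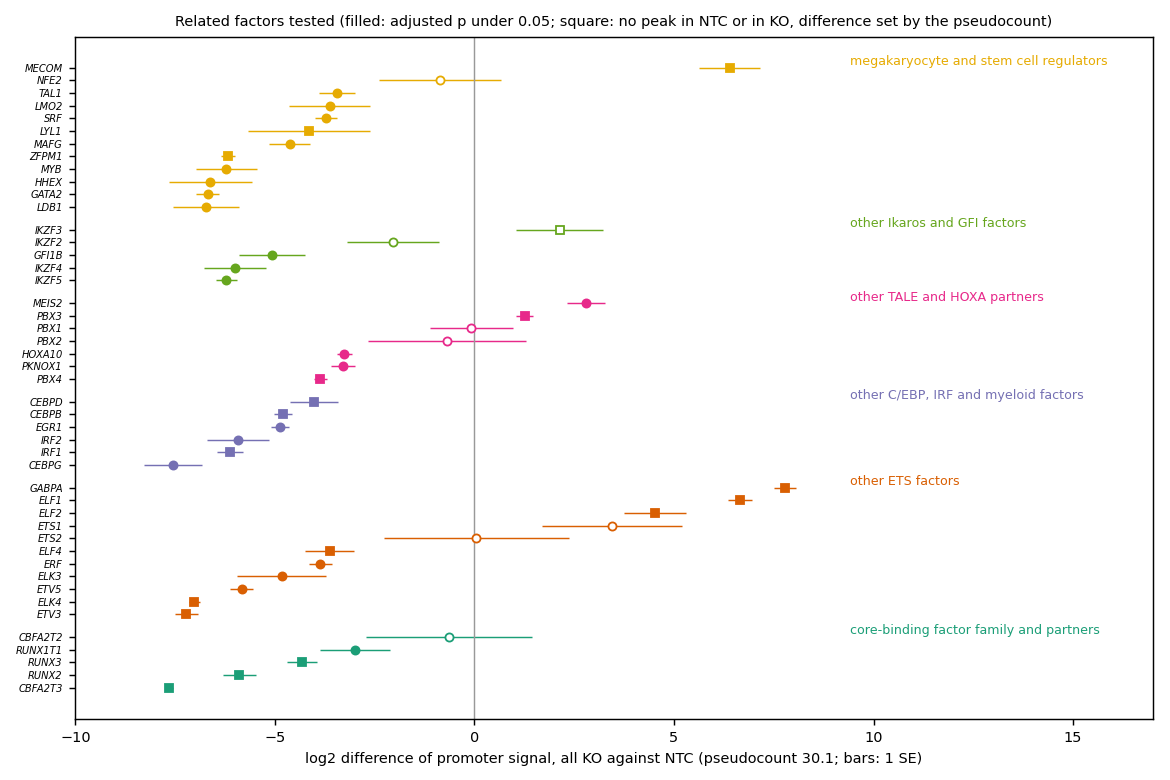
Log2 difference of promoter signal in all KO against NTC (x axis, pseudocount 30.1, bars of 1 SE) of the 46 related factors tested, coloured by list, filled where adjusted p was under 0.05 and square where one side had no peak. Of the 46, 32 are called lower and 6 higher, the latter being GABPA, ELF1, ELF2, MEIS2, PBX3 and MECOM.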

How the data were processed

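The members and gene lists were chosen with earlier results of these data known. Group and replicate number came from each library's label. The authors aligned paired ends with Bowtie to hg19 and to sacCer3, the yeast spike-in, calibrated by the spike-in, removed duplicates with Picard and called peaks in each library. Each deposited list holds peak positions and 1 signal value per peak, which is spike-in calibrated coverage. Read depth is not known, so precision is limited by how few libraries there were. Starts were read as counted from 0, and coordinates are given from 1.

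A gene's value was its largest peak signal within 1 kb of a GENCODE start (any transcript), and 0 where no peak was called. Values were compared with limma 3.58.1 (R 4.3.3, trend, Benjamini-Hochberg at 0.05) after adding the smallest deposited value, 30.1, and taking log2, over genes with a peak in at least 2 libraries, with all 9 libraries in 1 model. Changes of weak peaks are understated by this scale, and where one side had no peak it is set by the pseudocount and was printed for MEIS1 alone, among the alternatives. Where most libraries of one side had no peak, as for FLI1, GFI1, GFI1B and the internal MEIS1 region, the printed size rests largely on the pseudocount too. Peaks that overlapped by 1 bp or more formed a region, whose summed signal was fitted in the same way. All 10 members were named. From each list were named the lowest and highest log2 difference among genes marked in all NTC libraries, and genes marked in all 9. Other related genes were named because of their values, or as paralogs or examples, after these were seen. Other tools were Python 3.11.15, numpy 2.4.6 and matplotlib 3.10.9.

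The alternatives were the pseudocount, the filter, the window, the sum of peaks, centring on shared genes, division by the worth of 1 fragment, a threshold at the median NTC signal, fewer groups in the model, a replicate block, merging within 1 kb and leaving out each library.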

Additional observations from a re-analysis of the deposited data

How the results depend on the processing

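The limits are few libraries, unknown depth, a call threshold that by the estimate above took more fragments in the KO libraries, and a scale on which missing peaks are set by the pseudocount. The cause of the changes listed here was not tested unless stated. CBFB, ERG and CEBPA had no KO peak, so their calls as lower are a description throughout. The 5 members lower in all KO were called in the same number whichever library was left out.

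Requiring a peak in at least 4 libraries removes genes marked in the NTC libraries alone, and the members called lower were then 2 in METTL3-KO, 2 in METTL14-KO, 2 in WTAP-KO and 2 in all KO. Over all genes this filter gave 3443 lower and 1089 higher in METTL3-KO, 4400 lower in METTL14-KO, 4499 lower in WTAP-KO and 4481 lower in all KO, against 7334, 1690, 8281, 8386 and 8781. Under a threshold at the NTC median signal, genes called higher were 861, 330, 211 and 860 in METTL3-KO, METTL14-KO, WTAP-KO and all KO, against 1690, 1009, 820 and 1718. The members marked per library then averaged 5.33 in NTC, 3 in METTL3-KO, 2.5 in METTL14-KO and 2 in WTAP-KO, against 6.67, 4.5, 4 and 3.5, and in the 5 kb window 8 in NTC and 5 in METTL14-KO. RUNX1 in METTL14-KO, not called by default, was the 1 member called higher there in the 5 kb window, with the sum of peaks, after centring on genes marked in all 9 libraries, and after division by the worth of 1 fragment. After centring or division 2 members were higher in all KO, FLI1 being the second (log2 6.46, limma adjusted p = 0.0254, and 6.41, adjusted p = 0.0444). ETV6 in WTAP-KO was -3.21 (limma adjusted p = 0.167) after centring, -4.87 (adjusted p = 0.0835) after division and -5.84 (adjusted p = 0.0526) with only those groups in the fit.

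METTL3-KO against the other KO groups gave 2319 genes and 1 member after centring, 2082 genes after division and 888 at the higher threshold, against 3622 and 0. METTL14-KO against WTAP-KO gave 25 genes at 10 times the pseudocount, 136 at the higher threshold and 0 with only these groups in the fit, against 333. Merging peaks within 1 kb left 4 near-start regions higher in place of 10.

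MEIS1 changed sign in the 5 kb window, at -6.13 in METTL3-KO, -1.36 in METTL14-KO, -3.44 in WTAP-KO and -3.64 in all KO. It was also -0.36 in METTL3-KO at 10 times the pseudocount and -3.08 in WTAP-KO at the higher threshold, where no WTAP-KO peak was left and the size is set by the pseudocount. IKZF1 changed sign in the 5 kb window, at -1.40, -1.75 and -2.68 in METTL3-KO, METTL14-KO and all KO.

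Leaving out one library at a time, the members called higher ranged from 1 to 2 in METTL3-KO, 0 to 1 in METTL14-KO, 1 to 2 in WTAP-KO and 1 to 2 in all KO, since FLI1 passed without NTC replicate 2, MEIS1 without NTC replicate 1 and IKZF1 without METTL3-KO replicate 1. Members called ranged from 0 to 2 in METTL3-KO against the other KO groups and from 0 to 1 in METTL14-KO against WTAP-KO. Genes called ranged from 2389, without METTL3-KO replicate 1, to 4378 in the first of these and from 222 to 1369, without METTL14-KO replicate 2, in the second. Distal regions called higher ranged from 0 to 1. MEIS1 in METTL3-KO ranged from -3.08 to 3.34, negative without NTC replicate 2, NTC replicate 3 or METTL3-KO replicate 1, and with no peak on one side without METTL3-KO replicate 1 or NTC replicate 1. FLI1 without NTC replicate 2 and IKZF1 in every such fit likewise had no NTC peak, so those calls are a description.

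Deviations from the group mean in same-numbered libraries of different groups had correlations between -0.0578 and 0.095 over 12 pairs. In groups of 2 libraries these deviations mirror each other, so the 12 values are not independent. They cannot settle whether same-numbered libraries shared a culture or batch. With the replicate number as a block, METTL14-KO against WTAP-KO gave 112 genes, ETV6 in WTAP-KO was -5.64 (limma adjusted p = 0.0616), and MEIS1 in METTL3-KO was -1.41. The block changed no other call of a member.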
